A study of Mus musculus with 4 samples.

Results

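ZDHHC3, TXNIP and PRDX2 were each read by 1 probe set, so 3 of the 99 genes with a name of their own, and 3 of all 137 probe sets, in the deposited table are described here. They were chosen as all probe sets whose platform annotation gives 1 gene symbol and whose symbol is one of these names. The RNA came from 4 mammary fat pad tumors grown from MDA-MB-231 cells, an established human triple-negative breast cancer line. In 2 of them the injected cells carried a control shRNA, a short hairpin RNA made for gene silencing, and in the other 2 an shRNA against DHHC3, the protein made from ZDHHC3. All hosts were female athymic nude mice, Crl:NU(NCr)-Foxn1nu, a strain without a functional thymus, and the tumors are labelled as 35 days old. Each group received 10 injections and growth was followed for 30 days. The knockdown was made in the tumor cells, so the host cells of both groups kept their own Zdhhc3. The labels give neither the hairpin sequence nor whether the cells were a clone or a pool, and separate mice are not stated for the tumors within a group. The spread between arrays of a group, and every p-value built on it, covers these samples only.

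ZDHHC3 belongs to the DHHC family of palmitoyl acyltransferases, membrane enzymes that attach palmitate to cysteines of other proteins through the Asp-His-His-Cys motif that names them. Thioredoxin is a small protein that reduces disulfides in other proteins and is itself recharged by thioredoxin reductase. TXNIP, an alpha arrestin, binds reduced thioredoxin and limits its activity, and its transcription is known to follow glucose supply. PRDX2 is a cytosolic peroxiredoxin that reduces hydrogen peroxide and is in turn reduced by thioredoxin, so it is a client of thioredoxin and not a regulator. The study asks how loss of DHHC3 bears on tumor growth, oxidative stress and senescence, and these genes cover its target and a pair of genes from the thioredoxin arm of peroxide handling.

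The table limits what a test can say. It holds 137 probe sets of a human expression array, chosen by a rule that is not given in the sources used here, and in all 137 of them the 2 groups did not overlap. In limma's moderated test, adjusted with Benjamini-Hochberg over the 137 probe sets, 137 passed the threshold of 0.05 (100% called, 73.7% of the table higher and 26.3% lower in the DHHC3 shRNA tumors). A pass by ZDHHC3, TXNIP or PRDX2 therefore says no more than that the gene is in the table. The SE, interval and adjusted p given for each gene were fitted on this list alone. They do not allow for how the list was chosen. The median probe set read 312 and 351 arbitrary units in the control tumors, against 484 and 458 in the DHHC3 shRNA tumors. The organism is labelled as mouse, the host, while the probe sets are annotated to human genes. How much mouse RNA bound to them was not measured. None of the 9 markers set for MDA-MB-231 and similar cells is in the table, so the tumor cell label was not checked here.

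The targeted gene was lower in both tumors labelled as depleted. ZDHHC3, on probe set 218078_s_at, read 971 and 854 units in the 2 control tumors, against 240 and 264 units in the 2 DHHC3 shRNA tumors. Both depleted tumors thus lay far below both controls, in a table where the groups did not overlap in any of the 137 probe sets. The group means were 912 ± 82.9 and 252 ± 16.8 units (SD, n = 2 each), a 3.62-fold fall. Across the 4 pairs of a control and a DHHC3 shRNA array the fall ran from 3.24-fold to 4.05-fold, whereas the 2 controls differed by 1.14-fold and the 2 depleted tumors by 1.10-fold. Its log2 fold change of -1.86 ± 0.11 (SE) had a 95% interval from -2.13 to -1.59 and a limma adjusted p of 0.000193. No detection call or background estimate was used here, so how much of the signal left in the depleted tumors is transcript was not measured. In tumor RNA, fewer cells with the transcript and less transcript per cell cannot be told apart.

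TXNIP rose in the DHHC3 shRNA tumors, and its 2 arrays read nearly the same in each group. Its probe set, 201008_s_at, read 922 and 905 units in the control tumors, against 2376 and 2317 units in the DHHC3 shRNA tumors. Both depleted tumors lay above both controls, and all 137 probe sets separated the groups in this way or the reverse. The 2 arrays of a group differed by only 1.02-fold in the controls and 1.03-fold after depletion. The means were 914 ± 11.9 and 2347 ± 41.6 units (SD, n = 2 each), a 2.57-fold rise that ran from 2.51-fold to 2.62-fold over the 4 pairs of arrays. Its log2 fold change of 1.36 ± 0.08 (SE) had a 95% interval from 1.16 to 1.57 and a limma adjusted p of 0.000193. The SD of TXNIP on the log2 scale, pooled over both groups, was 0.022, the 5th lowest of the 137, against a median of 0.101 over the table. TXNIP thus had a spread among the smallest of the list on these 4 arrays. An SD from 2 arrays per group is itself imprecise, so its rank is a description.

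PRDX2 also rose, with a wider spread after depletion. Its measured fold was smaller than that of TXNIP, but the sizes of the 2 rises could not be told apart. Its probe set, 215067_x_at, read 255 and 252 units in the control tumors, against 516 and 586 units in the DHHC3 shRNA tumors. The controls differed by 1.01-fold and the depleted tumors by 1.14-fold, with DHHC3 shRNA replicate 2 the higher. Pooled over both groups, its SD on the log2 scale was 0.092, the 64th lowest of the 137, near the median of 0.101. With 2 arrays per group, the wider spread after depletion is a description. The groups did not overlap, as in all 137 probe sets of the table. The means were 253 ± 1.5 and 551 ± 49.7 units (SD, n = 2 each), a 2.17-fold rise that ran from 2.03-fold to 2.32-fold over the pairs of arrays. Its log2 fold change of 1.12 ± 0.10 (SE) had a 95% interval from 0.87 to 1.36 and a limma adjusted p of 0.000324. The suffix _x_at marks a probe set whose probes can also bind other transcripts, so the signal may not come from PRDX2 alone. 28 probe sets of the table carry that suffix, 22 of them higher in the depleted tumors, and 2 of those 22 rose more than PRDX2. ZDHHC3 and TXNIP were read by probe sets with the suffix _s_at, which marks probes shared by several transcripts, most often of 1 gene.

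**Figure D1:**
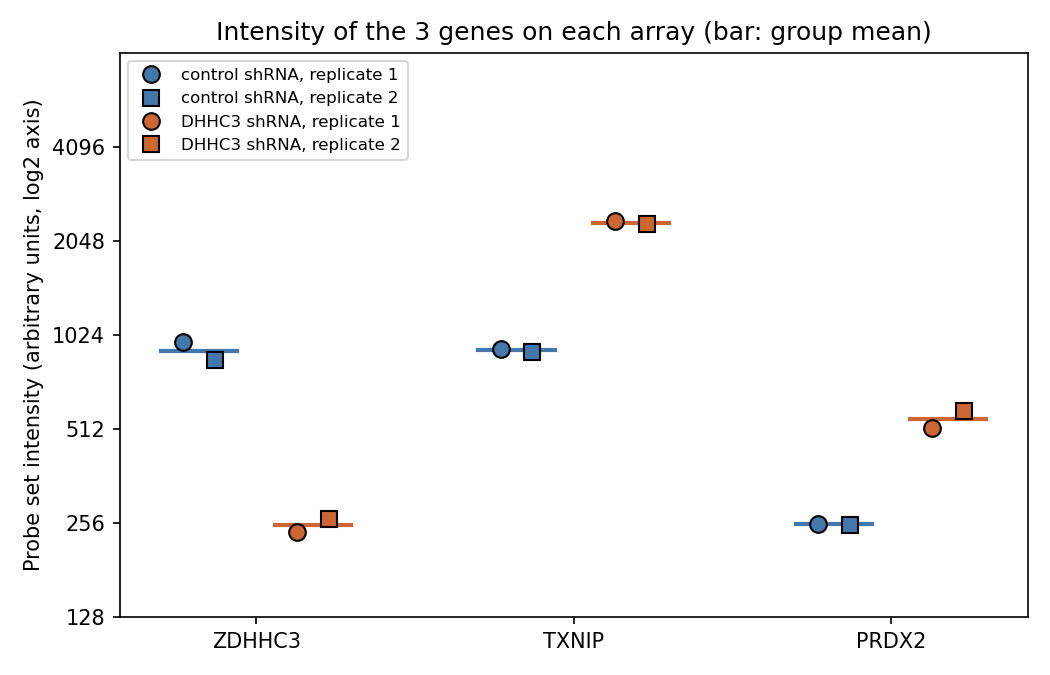
Probe set intensity in arbitrary units, on a log2 axis, of ZDHHC3, TXNIP and PRDX2 on each of the 4 arrays, with circles for replicate 1, squares for replicate 2 and a bar at each group mean. ZDHHC3 is lower on both DHHC3 shRNA arrays (240 and 264 against 971 and 854 units), and TXNIP (2376 and 2317 against 922 and 905) and PRDX2 (516 and 586 against 255 and 252) are higher.

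The place of each gene in the list differed. ZDHHC3 had the second largest fall of the 36 probe sets that were lower. TXNIP had the 18th largest rise and PRDX2 the 34th largest of the 101 that were higher. Since most of the list was higher, its median log2 fold change was 0.94. Relative to that median TXNIP stood 0.43 higher, PRDX2 0.18 higher and ZDHHC3 at -2.79. 33 probe sets of the list had a higher log2 fold change than PRDX2 and 103 a lower one, while 1 had a lower one than ZDHHC3.

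Differences of at least 2-fold were found in 41 of the 69 dimmer probe sets and 19 of the 68 brighter ones, so each gene was also set beside the 20 probe sets nearest to it in mean intensity. Around ZDHHC3, between 392 and 577 units, 16 were higher and 4 lower, with a median fold of 1.93 and a largest fold of 3.14, below the 3.62-fold of ZDHHC3. Around TXNIP, between 1107 and 1970 units, 11 were higher and 9 lower, with a median fold of 1.77 and a largest fold of 2.13, below the 2.57-fold of TXNIP. Around PRDX2, between 282 and 478 units, 5 of the 20 had a larger fold than PRDX2, 3 of them rises, and the median fold was 1.94. The largest fold there was the 3.62-fold fall of ZDHHC3, which is itself among these 20. ZDHHC3 and TXNIP therefore had the largest differences among probe sets of like intensity in this list, and PRDX2 did not. These neighbours describe the list only, since all of its probe sets separate the groups.

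**Figure D2:**
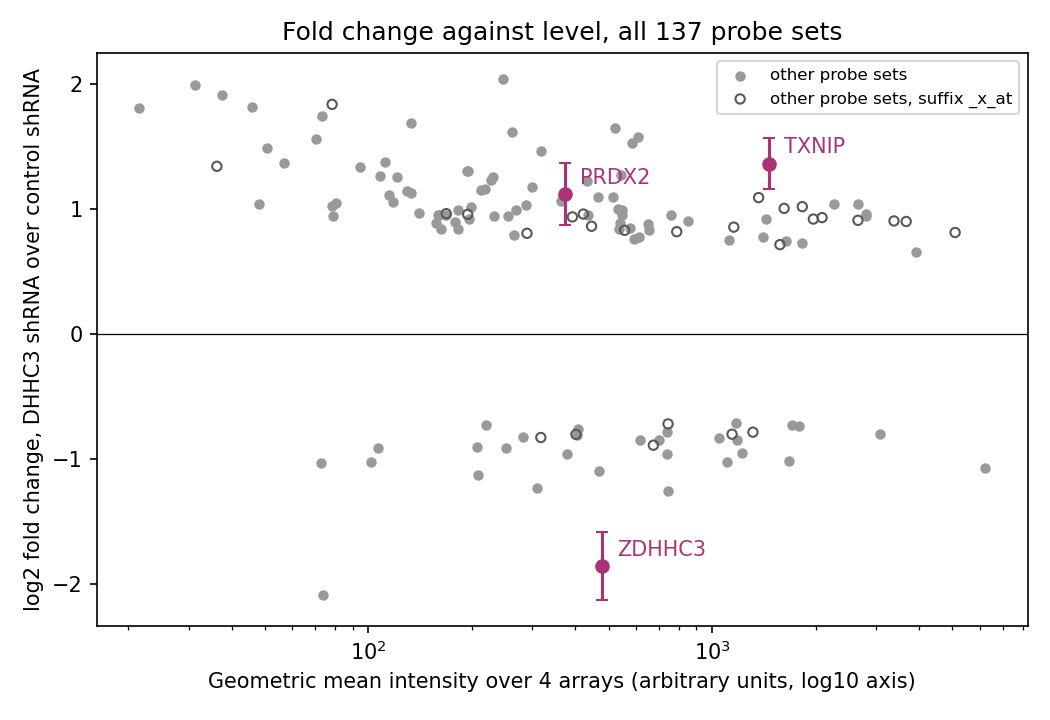
The log2 fold change of DHHC3 shRNA over control shRNA (y axis) against the geometric mean intensity over the 4 arrays (x axis, arbitrary units, log10 axis) for all 137 probe sets, with open circles for the suffix _x_at and 95% intervals on the 3 genes. ZDHHC3 at -1.86 and TXNIP at 1.36 lie beyond the probe sets of like intensity, while PRDX2 at 1.12 lies among them.

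A ratio of a pair of genes on the same array does not depend on a single factor by which that array was multiplied, so ratios were followed across the tumors. Scaling that is not a single factor, such as quantile normalization, does change it. Only the change of such a ratio is read here, since the levels of different probe sets cannot be compared. The ratio of TXNIP to ZDHHC3 was 0.950 and 1.06 in the control tumors, against 9.91 and 8.79 in the DHHC3 shRNA tumors. It was thus 9.30-fold higher in the depleted tumors, a log2 difference of 3.22 with a 95% interval from 2.71 to 3.72 on 2 residual degrees of freedom. The ratio of PRDX2 to ZDHHC3 was 0.262 and 0.296 in the control tumors, against 2.15 and 2.22 in the DHHC3 shRNA tumors. That was a 7.86-fold difference, or 2.97 on the log2 scale (95% interval from 2.59 to 3.36). ZDHHC3 and each of the other genes thus moved apart by more than the spread between arrays, whatever single factor had scaled an array. Since every probe set of the list separates the groups, the ratio of any rise to any fall would also separate them. These ratios are therefore a description.

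TXNIP and PRDX2 could not be told apart in the size of their rise. The ratio of TXNIP to PRDX2 was 3.62 and 3.59 in the control tumors, against 4.61 and 3.95 in the DHHC3 shRNA tumors. Both depleted tumors were above both controls, but the 2 depleted tumors differed by more than the nearer of them did from the controls. The log2 difference was 0.24, with a 95% interval from -0.23 to 0.72, which holds 0. It was 0.13 without DHHC3 shRNA replicate 1, 0.35 without DHHC3 shRNA replicate 2 and 0.50 after quantile normalization. The interval also allows a rise of TXNIP that is larger by 0.72 on the log2 scale, so it does not show that the genes rose alike. An exact two-sided permutation test over the 4 arrays gave p = 0.333 for each of the 3 ratios, before and after Benjamini-Hochberg adjustment over them. That is the smallest p this design can give.

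**Figure D3:**
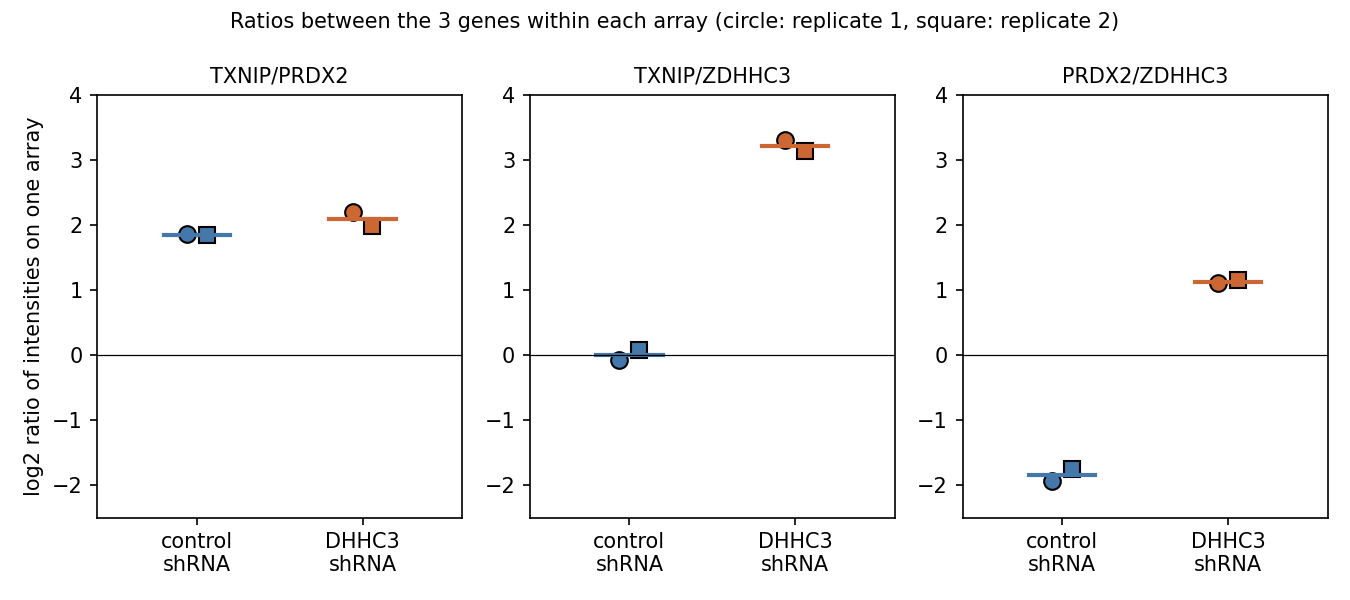
The log2 ratio of intensities within each array for the 3 pairs of genes, by group, with circles for replicate 1, squares for replicate 2 and a bar at each group mean. The ratios to ZDHHC3 are higher by 3.22 (TXNIP) and 2.97 (PRDX2) in the DHHC3 shRNA tumors, and the ratio of TXNIP to PRDX2 by 0.24.

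The order of the probe sets by brightness within an array is likewise untouched by a single factor per array. ZDHHC3 was the 35th and 39th of 137 in the control tumors, against the 98th and 92nd in the DHHC3 shRNA tumors. TXNIP went from the 39th and 35th place to the 15th and 16th. PRDX2 went from the 79th and 81st place to the 66th and 59th. All 3 genes changed place in the direction of their fold change on both arrays. These places are counted within the list, so they restate the fold changes relative to it.

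The fold changes themselves depended on how arrays were scaled, and the scaling of the deposited values is not known. When arrays were centred on their medians, the median log2 fold change of the list fell by 0.509. ZDHHC3 was then 5.15-fold lower, TXNIP 1.80-fold higher and PRDX2 1.52-fold higher. Under quantile normalization that median fell by 0.581, and the folds were 4.72 for ZDHHC3, 2.19 for TXNIP and 1.54 for PRDX2. As most probe sets of the list were higher, both settings pull rises down by construction. The directions and the calls of the 3 genes were the same in each setting in which they were fitted.

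**Figure D4:**
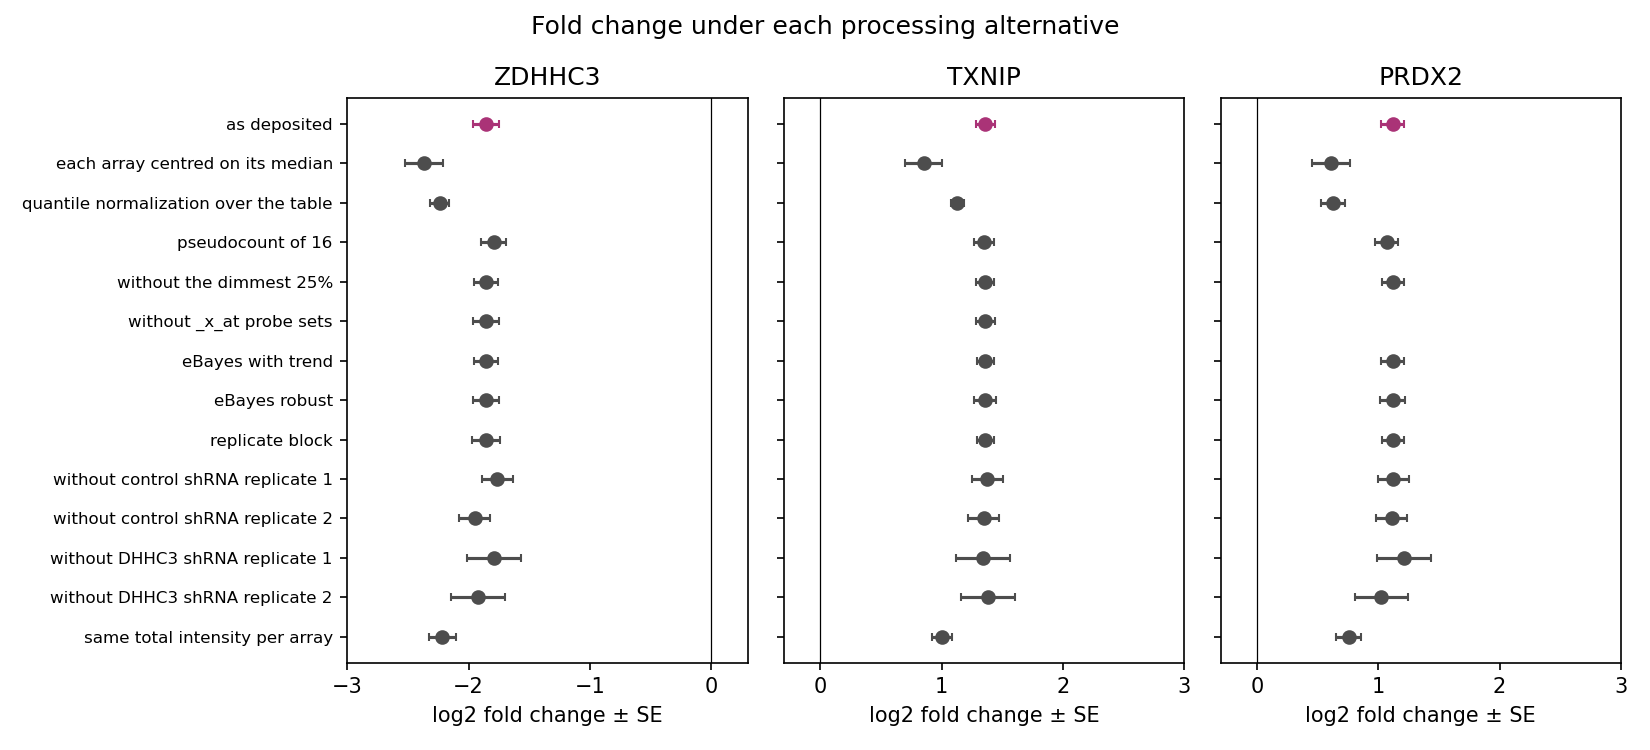
The log2 fold change of DHHC3 shRNA over control shRNA with its SE for ZDHHC3, TXNIP and PRDX2 as deposited and under each alternative. PRDX2 has no value without the _x_at probe sets. ZDHHC3 runs from -2.37 to -1.76, TXNIP from 0.85 to 1.38 and PRDX2 from 0.61 to 1.21, with no change of sign.

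The probe sets with the most similar course over the 4 arrays were found by the distance between log2 values centred on each probe set's mean. With 4 arrays this is a description of the list. TXNIP was nearest to STRN, a striatin (distance 0.129), which read 148 and 147 units in the control tumors, against 354 and 341 in the DHHC3 shRNA tumors. NAIP, an inhibitor of apoptosis family member (0.134), and GTF2I, a general transcription factor (0.139), came next, with rises of 2.6-fold and 2.8-fold. PRDX2 was nearest to AASS, an enzyme of lysine breakdown (distance 0.0912), which read 312 and 325 units in the control tumors, against 662 and 700 in the DHHC3 shRNA tumors. CALML4, a calmodulin-like protein (0.141), and AVIL, the actin-binding advillin (0.175), followed, with rises of 2.06-fold and 2.19-fold. TXNIP and PRDX2 were at a distance of 0.289 from each other, so neither was among the 3 nearest of the other. Any gene outside those 3 is farther by construction. The distance is not scaled, so it also grows with the difference between the fold changes. ZDHHC3 lay farther from its nearest neighbours than TXNIP and PRDX2 did from theirs. Since only 1 probe set fell more than ZDHHC3, this partly restates its fold change. The nearest were TRBC1, a T cell receptor constant segment (0.648), BCL2A1, an anti-apoptotic BCL2 family member (0.652), and STK17B, a kinase (0.662), with falls of 4.25-fold, 2.39-fold and 2.35-fold.

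The other genes of these pathways were nearly all outside the table. 11 lists of processes held 124 genes, and besides ZDHHC3, TXNIP and PRDX2 only 1 of these genes, AKR1C1, has a probe set with 1 gene name in the table. Of 15 genes of the thioredoxin system, TXNIP was present and rose, and the other 14 were not analysed here, thioredoxin and its reductases among them. Of 10 peroxiredoxins and partners, PRDX2 was present and rose, and of 6 alpha arrestins and of 11 glucose-sensing factors and their genes, TXNIP was present. Of 23 DHHC acyltransferases, ZDHHC3 was present and fell, so whether another family member changed with it was not analysed here.

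Of 21 targets of NRF2, the transcription factor of the antioxidant response, only AKR1C1, an aldo-keto reductase, was in the table. AKR1C1 read 521 and 541 units in the control tumors, against 307 and 301 in the DHHC3 shRNA tumors, a 1.75-fold fall (log2 fold change -0.80 ± 0.08, SE; limma adjusted p = 0.000355), on a probe set with the suffix _x_at. It thus went against PRDX2 and TXNIP in direction, as every fall of the table did, and 26.3% of the table was lower. Neither PRDX2 nor TXNIP is in the list of NRF2 targets, and a change of these targets as a set was not tested. The lists of other peroxide and superoxide enzymes (10 genes), TXNIP partners with the NLRP3 inflammasome (8), palmitoyl thioesterases (7), known DHHC3 substrates (6) and senescence (12) had 0 genes in the table.

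Markers of cells that could carry these transcripts were sparse too. Of 72 marker genes in 12 lists, 1 was in the table, TRBC1 of the T and NK cell list. TRBC1 read 158 and 147 units in the control tumors, against 25.4 and 50.4 in the DHHC3 shRNA tumors. The DHHC3 shRNA values were the 137th and 135th in brightness on their arrays and differed by 1.99-fold. Which cells gave this signal was not tested. The list for erythroid cells, which hold much PRDX2 protein, had 0 of 10 genes in the table, and their part in the PRDX2 signal was not tested.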

How the data were processed

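The deposited values are processed intensity per probe set, linear and in arbitrary units, with 1 column per array. Total RNA was made into biotin-labelled cRNA, per the labels' protocols. For background correction, summarisation, scaling and the choice of probe sets, no source used here gives the method. Gene names came from the platform annotation: 101 probe sets had 1 symbol, 7 several and 29 none listed. All 4 arrays were fitted on the log2 of the deposited intensity, without a pseudocount, by lmFit and eBayes of limma 3.58.1 (R 4.3.3, no covariates), and p-values were adjusted over all 137 probe sets. Folds are ratios of geometric means. The procedure was tested on simulated data. Figures used matplotlib 3.10.9. The genes, lists and alternatives were chosen with earlier results of these data known. The rule for further names took the 3 nearest probe sets with 1 symbol per gene and any list member in the table. The lists covered the thioredoxin system, peroxiredoxins, other peroxide enzymes, NRF2 targets, alpha arrestins, glucose sensing, TXNIP partners, DHHC enzymes, thioesterases, DHHC3 substrates, senescence and 12 cell types. Human sequences and positions were not used here. The number of arrays limits the precision.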

Additional observations from a re-analysis of the deposited data

How the results depend on the processing

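The 3 fold changes kept their sign and stayed past the limma threshold in all 38 refits, with an adjusted p of at most 0.0143 (PRDX2 after quantile normalization). Leaving out 1 array at a time, and taking the array left alone to vary as the other group does, gave log2 fold changes from -1.95 to -1.76 for ZDHHC3, from 1.34 to 1.38 for TXNIP and from 1.03 to 1.21 for PRDX2. The number past the threshold was 124 with median centring and 104 after quantile normalization, of 137, and 102 of 102 without the dimmest 25%. Scaling to equal total intensity, added after seeing the data, gave a median log2 fold change that fell by 0.361, and folds of 4.65, 2.00 and 1.69 for ZDHHC3, TXNIP and PRDX2. Quantile normalization changed the log2 ratio differences to 0.50 (TXNIP to PRDX2), 3.37 (TXNIP to ZDHHC3) and 2.86 (PRDX2 to ZDHHC3), and a pseudocount of 16 changed the last to 2.86. Quantile normalization keeps only ranks within the list, and a pseudocount moves the dimmer value of a ratio most, both by construction. Leaving out arrays gave 0.13 to 0.35, 3.13 to 3.30 and 2.89 to 3.06 in the same order. The titles number the tumors without pairing them, and deviations of same-numbered arrays correlated at r = 0.061 over the 137 probe sets. With the replicate number as a block all 137 passed, with an adjusted p of 0.003 for each of the 3 genes. As every probe set in the list separates the groups, these counts do not measure stability. Signal over background is not known.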
